A study of Mus musculus with 35 samples.

Results

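Aminoacyl-tRNA synthetases are the enzymes that join each amino acid to its transfer RNA. Their genes were followed here across 3 mouse models of liver cancer. Members were all genes on the array with a probe set of their own whose symbol had the form of a synthetase name, and each gene was represented by its brightest probe set. This gave 34 genes of the 18820 genes tested, of which 18 encode cytosolic enzymes and 16 encode mitochondrial enzymes (symbols ending in 2). Of the cytosolic genes, 7 (Eprs, Iars, Kars, Lars, Mars1, Qars and Rars) encode enzymes of the multisynthetase complex and 11 encode enzymes outside it. Tarsl2 was counted as cytosolic, since its protein resembles cytosolic threonyl-tRNA synthetase. Kars and Gars each encode both a cytosolic and a mitochondrial form of their enzyme, and one probe set cannot separate the forms. Aars shares its probe set with Exosc6, and Farsb shares its probe set with Sgpp2, so neither was a member.

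The study profiled RNA of 35 mouse liver samples on Affymetrix Mouse Gene 1.1 ST arrays, with values on the log2 RMA scale. In the DEN model, mice received 10 mg per kg of the liver carcinogen diethylnitrosamine at 15 days of age and were examined at 9 months. There were 5 tumors, 5 samples of non-tumorous liver (NTL) from treated mice, and 5 livers of untreated matched controls. In the LTα/β model, tg1223 mice carry lymphotoxin-α and lymphotoxin-β transgenes active only in liver, and observation over 12 months gave 3 tumors and 5 NTL samples. In the MYC model, TRE-MYC was driven by LAP-tTA, a transactivator under a liver-specific promoter, and the mice ate chow with 200 mg per kg of doxycycline, which keeps the transgene silent, up to an age of 8 weeks. That model gave 5 tumors and 3 NTL samples, and 4 livers of transgene-negative mice served as controls for both transgenic models. No tumor shared a mouse identifier with an NTL sample. DEN tumors 1 and 4, DEN tumors 3 and 5, and LTα/β tumors 1 and 2 share the first part of their identifiers and may come from 1 mouse each. The MYC NTL identifiers begin with WT, and the labels do not explain this.

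The arrays differed in ways that touch the results below. Myc itself was 1.94 ± 0.61 (SE) higher on the log2 scale in MYC tumors than in MYC NTL (limma, adjusted p = 0.0217), although the samples of the groups overlapped. Ltb was 1.25 ± 0.36 higher in LTα/β tumors than in LTα/β NTL, and Lta was lower (-0.39 ± 0.13, limma, adjusted p = 0.032), both without overlap. DEN tumors also had higher Ltb (1.31 ± 0.31, adjusted p = 0.0014) and lower Lta (-0.32 ± 0.11, adjusted p = 0.0316) than DEN NTL, with overlap. Lta was dim in every group, at 3.89 to 5.11, where the first quartile of the arrays was 4.13 to 4.24. In LTα/β tumors it was not called apart from the transgene-negative controls (-0.17 ± 0.14, limma, adjusted p = 0.42). The array probe sets do not show whether the signal came from the transgene or from the mouse gene. Xist was high in all 3 LTα/β tumors, in 4 of 5 LTα/β NTL samples and in 1 sample of each control group, and low in every other sample. The 10 measured hepatocyte markers summed to between 81100 and 99600 on the linear scale in all samples, and none lay below the first quartile of the arrays in any group.

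Cytosolic synthetases feed the ribosomes that make most cell proteins. Several of them assemble with the scaffold proteins AIMP1, AIMP2 and EEF1E1 into the multisynthetase complex. The mitochondrial set, encoded in the nucleus and imported, charges the transfer RNAs used to make the mitochondrially encoded respiratory chain subunits. Many cytosolic synthetase genes are targets of ATF4, the transcription factor of the amino acid response, and MYC drives growth and protein synthesis genes in general.

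The promoters of 4 members are shown because these genes carry the main results. Sars rose against NTL in tumors of all 3 models. Gars and Iars rose in MYC tumors and hold the searched ATF4-type motif, and Nars2 fell furthest. The sequences are from RefSeq (build GRCm38.p6) and run 5′ to 3′ on the strand of the gene. They span 150 bases before to 30 bases after an annotated start. For Nars2 this start lies inside the annotated gene, which begins at chr7:96950839. Capitals mark matches to TGATGNAAT, a form of the response element of C/EBP and ATF factors, on either strand, or to CACGTG, the E-box that MYC can bind.
Sars, chr3:108445230-108445409, minus strand: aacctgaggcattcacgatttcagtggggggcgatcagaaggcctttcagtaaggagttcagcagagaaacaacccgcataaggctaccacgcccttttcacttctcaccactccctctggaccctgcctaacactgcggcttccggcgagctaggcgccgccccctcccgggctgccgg
Gars, chr6:55037851-55038030, plus strand: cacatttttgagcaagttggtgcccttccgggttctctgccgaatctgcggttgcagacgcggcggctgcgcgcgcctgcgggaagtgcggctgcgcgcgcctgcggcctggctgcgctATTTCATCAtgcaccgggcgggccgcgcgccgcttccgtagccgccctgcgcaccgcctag
Iars, chr13:49681980-49682159, plus strand: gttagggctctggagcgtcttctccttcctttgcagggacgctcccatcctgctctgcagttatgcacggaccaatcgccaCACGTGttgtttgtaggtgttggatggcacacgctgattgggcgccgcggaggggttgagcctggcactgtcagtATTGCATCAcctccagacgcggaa
Nars2, chr7:96951377-96951556, plus strand: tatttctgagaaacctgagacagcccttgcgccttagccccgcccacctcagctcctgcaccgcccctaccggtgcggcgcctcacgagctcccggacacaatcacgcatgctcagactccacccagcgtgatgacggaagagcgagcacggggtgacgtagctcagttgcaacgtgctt

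RefSeq windows of 300 bases (250 before to 50 after the start) were found for 25 of the 34 members, 11 cytosolic and 14 mitochondrial. TGATGNAAT, searched on both strands, lay in 2 of them, Gars and Iars, both on the opposite strand. It lay in 1.08% of the 27025 genes with a window. CACGTG lay in 3 member windows (Iars, Tars and Ears2) against 8.09% of all genes. The motifs do not overlap each other in these windows. A match describes the letters only. Forms with another last base, such as TGATGCAAC in the windows of Yars and Tars, were not counted. A window without a match may thus hold another form of the element.

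In DEN tumors the cytosolic and mitochondrial sets moved apart. Against DEN NTL, 6 of 18 cytosolic genes rose and 4 fell, whereas none of 16 mitochondrial genes rose and 8 fell. A gene was called when its adjusted p in limma, over all 18820 genes, was under 0.05. By this rule 15.6% of all genes rose and 16.7% fell. The median change was 0.20 for cytosolic genes and -0.26 for mitochondrial genes on the log2 scale, against -0.04 for all genes. Centring each array on its median lowered every change of this comparison by 0.08. The cytosolic split then became 3 higher and 5 lower, and the mitochondrial split 0 higher and 9 lower. The groups did not overlap for 5 cytosolic genes that were higher and 2 that were lower in tumors, and for 5 mitochondrial genes that were lower, against 10.7% of all genes higher and 11.7% lower. Without DEN NTL sample 2 or 3, 6 cytosolic genes were called in place of 10.

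Cars, the cysteinyl-tRNA synthetase gene, had the largest rise in DEN tumors. Its log2 values were 8.76, 9.46, 8.70, 9.02 and 8.85 in the tumors and 8.39, 8.07, 8.09, 8.27 and 8.27 in NTL. Every tumor was above every NTL sample, by 0.74 ± 0.14 (SE) on average, or 1.67-fold (limma, adjusted p = 0.000113). Sars, for serine, measured 9.85, 9.95, 9.93, 10.09 and 9.74 in the tumors against 9.22 to 9.40 in NTL. The groups did not overlap, and the change was 0.61 ± 0.07 (limma, adjusted p = 2.14e-07). Vars, for valine, measured 9.17, 9.01, 9.22, 8.95 and 9.13 in the tumors and 8.43 to 8.61 in NTL, again without overlap (0.60 ± 0.08, limma, adjusted p = 1.6e-06). Gars (0.31 ± 0.11), Rars (0.30 ± 0.11) and Nars (0.26 ± 0.09) made up the other rises. The adjusted p-values of these genes lay between 0.0306 and 0.0438 in limma, and their calls were lost after centring and in 7, 8 and 4 of the 10 fits without 1 array.

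Nars2, the mitochondrial asparaginyl-tRNA synthetase gene, had the largest change of any member in any comparison of tumor with NTL. The DEN tumors measured 7.56, 7.40, 7.21, 7.13 and 7.13, and DEN NTL measured 8.62, 8.84, 8.60, 8.66 and 8.84. All tumors were far below all NTL samples, with a change of -1.43 ± 0.15 (limma, adjusted p = 2.55e-08). Against the controls the change was -1.30 ± 0.15 (adjusted p = 1.02e-07). Yars2 (-0.45), Aars2 (-0.43), Vars2 (-0.41), Sars2 (-0.37), Hars2 (-0.36), Lars2 (-0.34) and Rars2 (-0.26) were the other mitochondrial genes that fell. Of the 8, 7 kept their call in every alternative fit, and Rars2 was the exception. The 8 mitochondrial genes not called had changes from -0.27 to 0.10, with adjusted p from 0.101 to 0.943.

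The 4 cytosolic genes that fell in DEN tumors were Tars, Tarsl2, Kars and Mars1. Tars, for threonine, measured 8.74, 9.83, 8.24, 9.10 and 8.10 in tumors and 9.35 to 9.78 in NTL. The tumors spread widely and 1 of them lay above all NTL samples, so the change of -0.75 ± 0.24 (limma, adjusted p = 0.0178) was lost without DEN tumor 3 or DEN tumor 5, which may come from 1 mouse. It was also lost with arrays of 1 identifier stem averaged (adjusted p = 0.0931) and with only the compared groups in the fit. Tarsl2, the threonyl-tRNA synthetase paralog, measured 6.40, 6.58, 6.44, 5.86 and 6.39 in tumors against 6.61 to 7.03 in NTL. Here all tumors were lower (-0.49 ± 0.11, limma, adjusted p = 0.00134). Kars fell by 0.35 ± 0.08 (limma, adjusted p = 0.000586), while DEN NTL was 0.30 ± 0.08 above the controls (adjusted p = 0.0975) and DEN tumors were -0.05 ± 0.08 from them (adjusted p = 0.699). Mars1 fell by 0.28 ± 0.11, with an adjusted p of 0.0487 in limma, and this call was lost in 9 of the 10 fits without 1 array, with averaged identifier stems (adjusted p = 0.149) and with an intensity trend. A second probe set, shared by Mars1 and its neighbour Ddit3, was higher in DEN tumors by 1.84, in the opposite direction to the probe set of Mars1 alone. Signal of Ddit3, an ATF4 target, and of Mars1 cannot be separated there.

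Against the untreated controls, DEN tumors again had cytosolic rises and mitochondrial falls. Here 7 cytosolic genes rose and 3 fell, with 8 of 16 mitochondrial genes lower and none higher (15% of all genes rose and 15.6% fell). Qars (0.30 ± 0.07, limma, adjusted p = 0.00202) and Lars (0.41 ± 0.12, adjusted p = 0.00756) were called here and not against NTL. No member was called between DEN NTL and control liver in limma, where 0.197% of all genes were called. Kars came nearest, at 0.30 (limma, adjusted p = 0.0975). At an unadjusted p under 0.05, 1 cytosolic gene, 0 mitochondrial genes and 9.55% of all genes passed. The DEN tumors were compared with both groups, so the 2 sets of changes share the tumor samples.

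**Figure D1:**
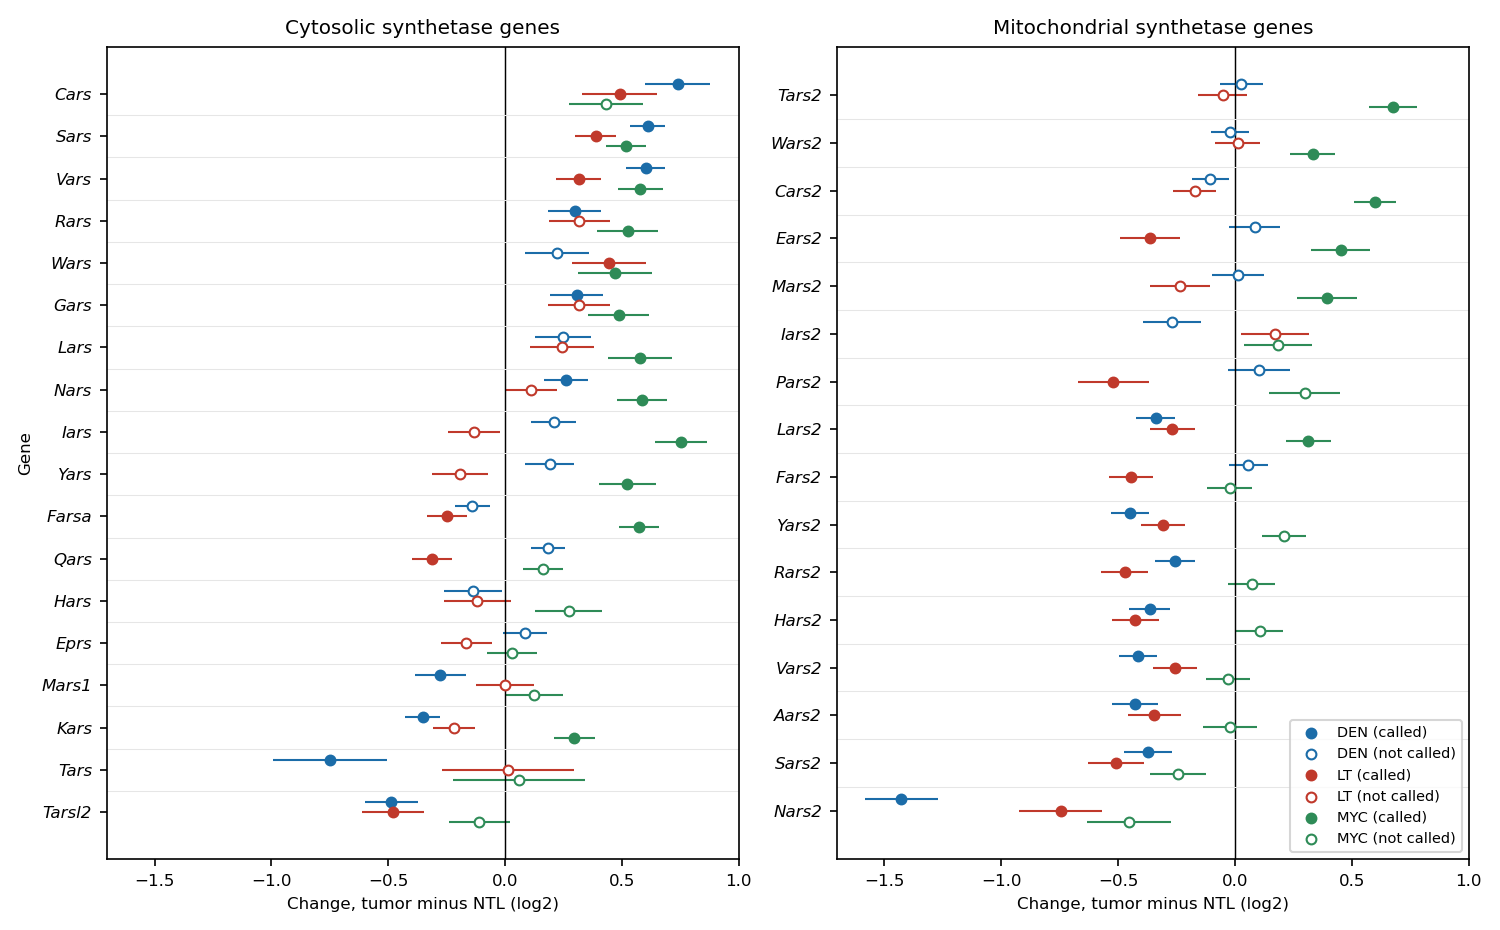
Log2 change of each synthetase gene in tumor against NTL of the same model, for 18 cytosolic (left) and 16 mitochondrial genes (right). Points are limma estimates with bars of 1 SE, filled where the adjusted p was under 0.05. Sars and Vars are filled and above 0 in all 3 models, and Nars2 lies furthest to the left at -1.43 in the DEN model.

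LTα/β tumors showed lower mitochondrial synthetase genes, with little net change of the cytosolic set. Against LTα/β NTL, 11 of 16 mitochondrial genes fell and none rose, and 4 of 18 cytosolic genes rose while 3 fell (10.7% of all genes rose and 9.73% fell). The median change was -0.33 for mitochondrial and 0.01 for cytosolic genes, against -0.03 for all genes. Tumors and NTL did not overlap for 8 lower mitochondrial genes, 3 lower cytosolic genes and 3 higher cytosolic genes, against 7.4% of all genes higher and 8.92% lower. Centring, which lowered every change of this comparison by 0.13, gave 1 cytosolic gene higher and 4 lower, with 13 mitochondrial genes lower.

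Nars2 again fell furthest, with 7.25, 7.49 and 7.81 in the 3 tumors and 8.19, 8.78, 8.12, 7.97 and 8.25 in NTL. The groups did not overlap (-0.75 ± 0.18, limma, adjusted p = 0.0032). Pars2 (-0.52), Sars2 (-0.51), Rars2 (-0.47), Fars2 (-0.44) and Hars2 (-0.43) followed. Rars2 measured 7.73, 7.89 and 8.08 in the tumors and 8.37, 8.42, 8.40, 8.17 and 8.50 in NTL. No tumor reached the NTL range (limma, adjusted p = 0.00108), but the third tumor lay inside the range of the controls, which measured 7.89 to 8.09. Ears2, Aars2, Yars2, Lars2 and Vars2 had smaller falls, from -0.36 to -0.26.

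Cars, Wars, Sars and Vars were the cytosolic genes that rose in LTα/β tumors. Sars measured 9.51, 9.51 and 9.28 in tumors and 9.03, 9.12, 8.85, 9.13 and 9.10 in NTL (0.39 ± 0.09, limma, adjusted p = 0.00174). Every tumor was above every NTL sample, but only the first 2 tumors were above the controls, which measured 9.18 to 9.36. Vars measured 8.70, 8.83 and 8.18, so that the third tumor lay inside the NTL range of 8.13 to 8.37. Cars measured 8.15, 8.07 and 8.66 against 7.62 to 8.00 in NTL (0.49 ± 0.16, limma, adjusted p = 0.0284). Wars, the tryptophanyl-tRNA synthetase gene and a known interferon-gamma target, was 0.44 ± 0.16 higher (adjusted p = 0.0453). Tarsl2, Qars and Farsa were lower, by -0.48, -0.31 and -0.25.

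The LTα/β calls depended on how the spread was estimated and on single samples. When the fit held the 8 LTα/β arrays alone, limma called 0 cytosolic and 0 mitochondrial members and 3.27% of all genes. At an unadjusted p under 0.05, 7 cytosolic and 11 mitochondrial members passed, as did 24.8% of all genes. Without LTα/β tumor 1, 1 cytosolic and 2 mitochondrial genes were called. Without NTL sample 3, NTL sample 5 or tumor 2, 4 cytosolic genes were called, and without NTL sample 3 or tumor 3, 7 mitochondrial genes were called. The difference of the medians, cytosolic minus mitochondrial, was 0.33 and stayed between 0.28 and 0.40 in the fits without 1 array.

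Against the shared controls, LTα/β tumors had 1 cytosolic gene higher (Rars, 0.43 ± 0.14) and 4 mitochondrial genes lower (Nars2, Sars2, Vars2 and Lars2), where 8.78% of all genes rose and 7.73% fell. The change was -1.05 ± 0.19 for Nars2 (limma, adjusted p = 0.000473) and -0.57 ± 0.12 for Sars2 (adjusted p = 0.00248). Centring, which lowered every change of this comparison by 0.15, gave 6 cytosolic and 10 mitochondrial genes lower and none higher. The share over all genes after centring was not counted. With the replicate number as a block, 2 cytosolic genes were called, 1 higher and 1 lower. With a term for high Xist, which marked all 3 tumors and 1 of 4 controls, 2 mitochondrial genes were called. The Rars call was lost without control 2, control 3 or tumor 2, and without tumor 3, 2 cytosolic genes were called. Without control 3 or tumor 1, 2 mitochondrial genes were called. A fit of these 7 arrays alone called 0 of all genes, with 4 cytosolic and 4 mitochondrial members, and 19.9% of all genes, at an unadjusted p under 0.05 in limma.

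LTα/β NTL differed from the controls in 2 members. Cars was lower, with 7.80, 8.00, 7.62, 7.96 and 7.65 in NTL and 8.52, 8.31, 8.06 and 8.59 in the controls (-0.56 ± 0.15, limma, adjusted p = 0.0336). Rars2 was higher by 0.38 ± 0.09 (adjusted p = 0.0224). For all genes, 2.41% were called. Neither call remained with the Xist term. The Cars call was also lost without control 1, 2 or 4 or NTL sample 1, 3 or 5, and the Rars2 call without control 2 or 3 or NTL sample 1, 3 or 5. Of the 8 group means, LTα/β NTL had the lowest for Cars (7.80) and the highest for Rars2 (8.37).

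MYC tumors had higher synthetase genes of both compartments, and no member was called lower than in MYC NTL. Of the cytosolic genes 11 of 18 rose, and of the mitochondrial genes 6 of 16 rose, where 11.5% of all genes rose and 10.3% fell. The median changes were 0.48 and 0.20, against -0.03 for all genes. All tumors were above all NTL samples for 13 cytosolic and 6 mitochondrial genes and below them for 1 mitochondrial gene, Nars2, against 13% of all genes higher and 13.9% lower. Centring, which lowered every change of this comparison by 0.08, gave 9 cytosolic genes higher and none lower. It gave 4 mitochondrial genes higher and 1 lower.

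Iars, the isoleucyl-tRNA synthetase gene of the complex, had the largest rise. The MYC tumors measured 10.89, 10.80, 10.95, 10.74 and 10.80 and the NTL samples 10.05, 10.01 and 10.18. The groups lay well apart (0.75 ± 0.11, or 1.68-fold, limma, adjusted p = 1.42e-05), and the other Iars probe set changed by 0.81. Nars (0.59), Lars (0.58), Vars (0.58), Farsa (0.57), Rars (0.52), Yars (0.52), Sars (0.52), Gars (0.49), Wars (0.47) and Kars (0.30) were the other cytosolic rises. Of the rises in MYC tumors, 8 of 11 cytosolic calls and 2 of 6 mitochondrial calls (Cars2 and Tars2) held in every fit run. Farsa, the catalytic subunit for phenylalanine, measured 8.04, 8.06, 8.03, 8.23 and 8.43 in tumors and 7.73, 7.54 and 7.48 in NTL. Its tumors did not overlap with any sample of the other 7 groups, whose highest value was 7.86. Cars was 0.43 ± 0.16 higher without overlap but had an adjusted p of 0.0515 in limma.

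Tars2, the mitochondrial threonyl-tRNA synthetase gene, led the mitochondrial rises. It measured 8.37, 8.58, 8.21, 8.46 and 8.29 in MYC tumors and 7.65, 7.74 and 7.72 in MYC NTL. All tumors were above every other sample of the study (0.68 ± 0.10, limma, adjusted p = 2.54e-05). Cars2 rose by 0.60 ± 0.09 (adjusted p = 2.14e-05), from 7.06 to 7.16 in NTL to 7.62 to 7.83 in tumors. Ears2 (0.45), Mars2 (0.39), Wars2 (0.33) and Lars2 (0.31) completed the set. Nars2 changed by -0.45 ± 0.18 without overlap (adjusted p = 0.0672), and MYC NTL had the highest Nars2 mean of the 8 groups, at 9.01.

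Against the shared controls, 11 cytosolic genes and 5 mitochondrial genes were higher in MYC tumors and 1 cytosolic gene, Tars, was lower (10.2% of all genes rose and 10.3% fell). Vars was 0.79 ± 0.09 higher (limma, adjusted p = 1.15e-07) and Tars2 was 0.74 ± 0.10 higher (adjusted p = 1.39e-06). Tars measured 8.42, 8.84, 9.47, 8.46 and 8.65 in MYC tumors and 9.55, 9.56, 9.41 and 10.00 in controls. The change was -0.86 ± 0.26 (adjusted p = 0.0162), was not called without control 4 (adjusted p = 0.064), and had no counterpart against MYC NTL (0.06 ± 0.28), since MYC NTL was itself low at 8.70, 8.58 and 8.85. Qars rose by 0.55 ± 0.08 against the controls and by 0.16 ± 0.09 against NTL, and it was already 0.39 ± 0.09 higher in MYC NTL than in controls (adjusted p = 0.0095). Qars was the only member called between MYC NTL and controls, where 3.83% of all genes were called, and this call was lost without NTL sample 1 (adjusted p = 0.0697).

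**Figure D2:**
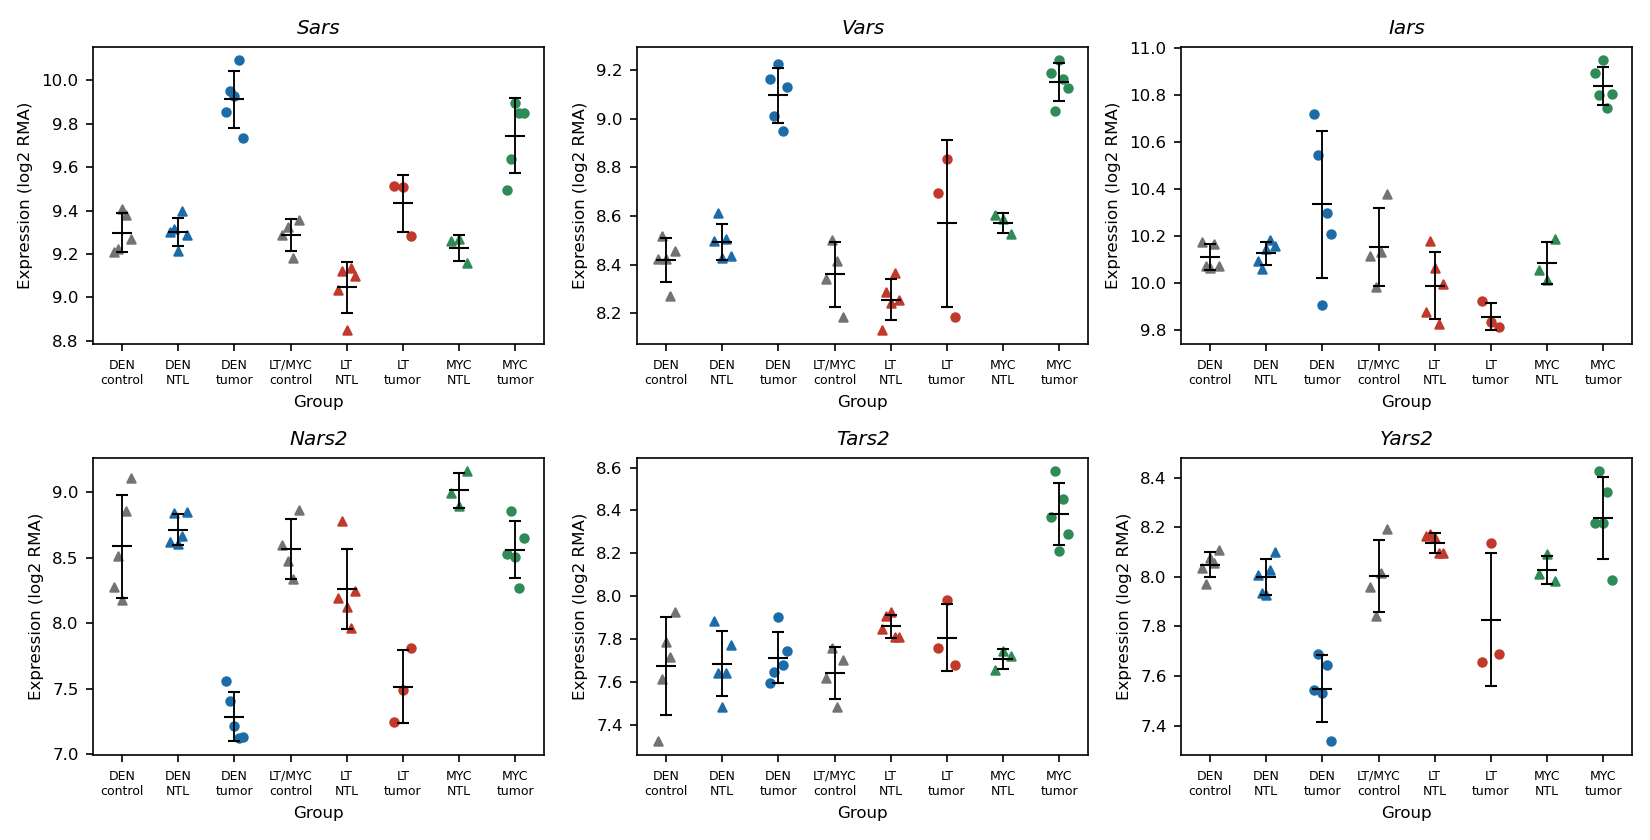
Log2 RMA values of 6 synthetase genes in every sample of the 8 groups; points are samples, with the mean and 1 SD in black. Sars and Vars are raised against NTL in all 3 tumor groups, but were not called against the controls in LTα/β tumors. Iars and Tars2 are raised in MYC tumors (Tars2 8.21 to 8.58), and Nars2 and Yars2 are lowest in DEN tumors. For Yars2 1 LTα/β tumor lies within the NTL range, and for Vars another does.

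Sars and Vars were the 2 members that rose in tumors of all 3 models against NTL, and no member fell in all 3. Against the shared controls neither was called in LTα/β tumors (Sars 0.15, Vars 0.21), and LTα/β NTL had the lowest group mean for both. The LTα/β call of Vars against NTL was lost after centring, with averaged identifier stems, and without LTα/β tumor 1 or tumor 2. With only the compared groups in the fit, the LTα/β calls of both Sars and Vars were lost. For all genes, 1.77% rose and 1.56% fell in all 3. Between DEN and LTα/β, 9 members fell in both (8 mitochondrial genes and Tarsl2), against 4.23% of all genes, and 3 rose in both (Cars, Sars and Vars), against 4.37%. For Cars too, LTα/β NTL had the lowest group mean, and LTα/β tumors were -0.07 from the controls. The 8 mitochondrial genes were Aars2, Hars2, Lars2, Nars2, Rars2, Sars2, Vars2 and Yars2. None of these 8 was called lower in MYC tumors, where Nars2 changed by -0.45 with every tumor below every NTL sample (adjusted p = 0.0672), and Lars2 rose there. Ears2, Farsa, Kars and Lars2 were called in opposite directions in different models. Eprs, Hars and Iars2 were called in none of the 3.

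The differences between the models were tested directly, as the tumor-NTL change of one model minus that of another. The DEN change was below the MYC change for 10 members (3 cytosolic and 7 mitochondrial) and above it for none, where 7.12% of all genes were above and 7.98% below. The LTα/β change was below the MYC change for 16 members (6 cytosolic and 10 mitochondrial) and above it for none, where 5.76% were above and 6.6% below. Between DEN and LTα/β, Qars, Fars2 and Pars2 had the higher change in DEN, and none had a lower one (6.3% above and 7.61% below). The first 2 of these contrasts share the MYC samples.

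Among called members, Nars2 had the largest difference between DEN and MYC (-0.97 ± 0.24, limma, adjusted p = 0.00457), followed by Farsa (-0.72 ± 0.11, adjusted p = 6.04e-05) and Cars2 (-0.71 ± 0.12, adjusted p = 0.000154). Yars2 followed at -0.66. Between LTα/β and MYC, Iars differed most (-0.88 ± 0.16, limma, adjusted p = 0.000515), then Farsa (-0.82 ± 0.12, adjusted p = 5.82e-05), Pars2 (-0.82) and Ears2 (-0.82). With the 16 arrays of these 4 groups alone in the fit, the LTα/β against MYC contrast called 9 members in place of 16, all lower. Sars, Vars, Gars and Wars were not called in any contrast. For Sars the difference between DEN and MYC was 0.09 ± 0.11 and that between LTα/β and MYC was -0.13 ± 0.12.

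**Figure D3:**
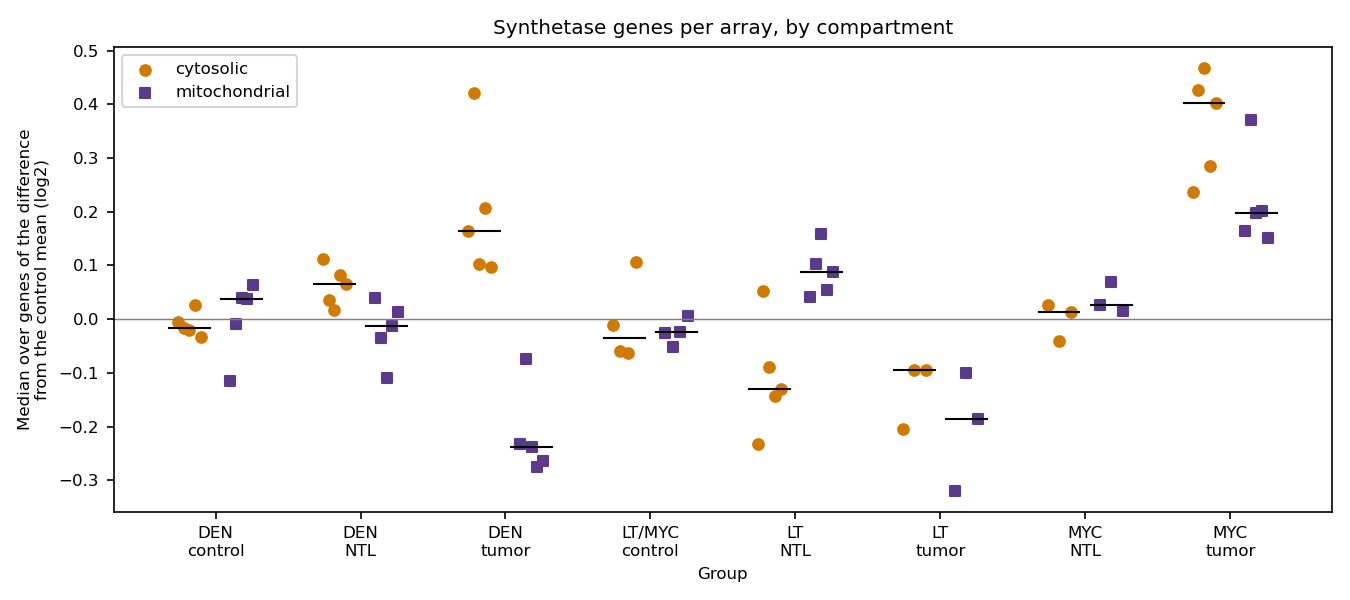
Median log2 difference from the mean of the model's own controls, over 18 cytosolic genes (circles) and 16 mitochondrial genes (squares), for each of 35 arrays; lines mark group medians. Circles and squares separate in DEN tumors (0.10 to 0.42 against -0.28 to -0.07), and both sets are above 0 in all MYC tumors.

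The sets were also summarised on each array as the median difference from the controls. DEN tumors had cytosolic medians of 0.10 to 0.42 and mitochondrial medians of -0.28 to -0.07, so the cytosolic median exceeded the mitochondrial one by 0.34 to 0.49 in each tumor. In DEN NTL this signed difference, cytosolic minus mitochondrial, was 0.05 to 0.13, and in DEN controls it was -0.10 to 0.11. In LTα/β tumors both medians were negative (-0.20 to -0.09 cytosolic and -0.32 to -0.10 mitochondrial) with a difference of 0.01 to 0.12, whereas LTα/β NTL had differences of -0.27 to -0.05. In MYC tumors both were positive (0.24 to 0.47 and 0.15 to 0.37) with a difference of 0.06 to 0.27, against -0.11 to -0.0012 in MYC NTL. In each model the signed difference was higher in every tumor than in every NTL sample. The shared controls, at -0.04 to 0.10, overlapped with both the LTα/β and the MYC tumors, while the DEN tumors lay above all DEN controls. These are descriptions over genes chosen by name and carry no test.

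For 13 amino acids both the cytosolic and the mitochondrial gene were members. The cytosolic gene had the higher change in 10 of 13 pairs in DEN tumors, 12 of 13 in LTα/β tumors and 10 of 13 in MYC tumors, each against NTL. The median difference within pairs was 0.56, 0.43 and 0.31 in the same order. The Nars and Nars2 pair had the highest difference in DEN (1.69) and MYC (1.04), and the Sars and Sars2 pair in LTα/β (0.90). Threonine went the other way in DEN and MYC, where the change of Tars minus that of Tars2 was -0.78 and -0.62. Against the controls the cytosolic gene had the higher change in 10, 9 and 9 of 13 pairs in DEN, LTα/β and MYC tumors. The median difference within pairs was then 0.63, 0.06 and 0.33, so that of LTα/β was close to 0. Between LTα/β NTL and controls the cytosolic gene had the higher change in 2 of 13 pairs, with a median difference of -0.25.

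**Figure D4:**
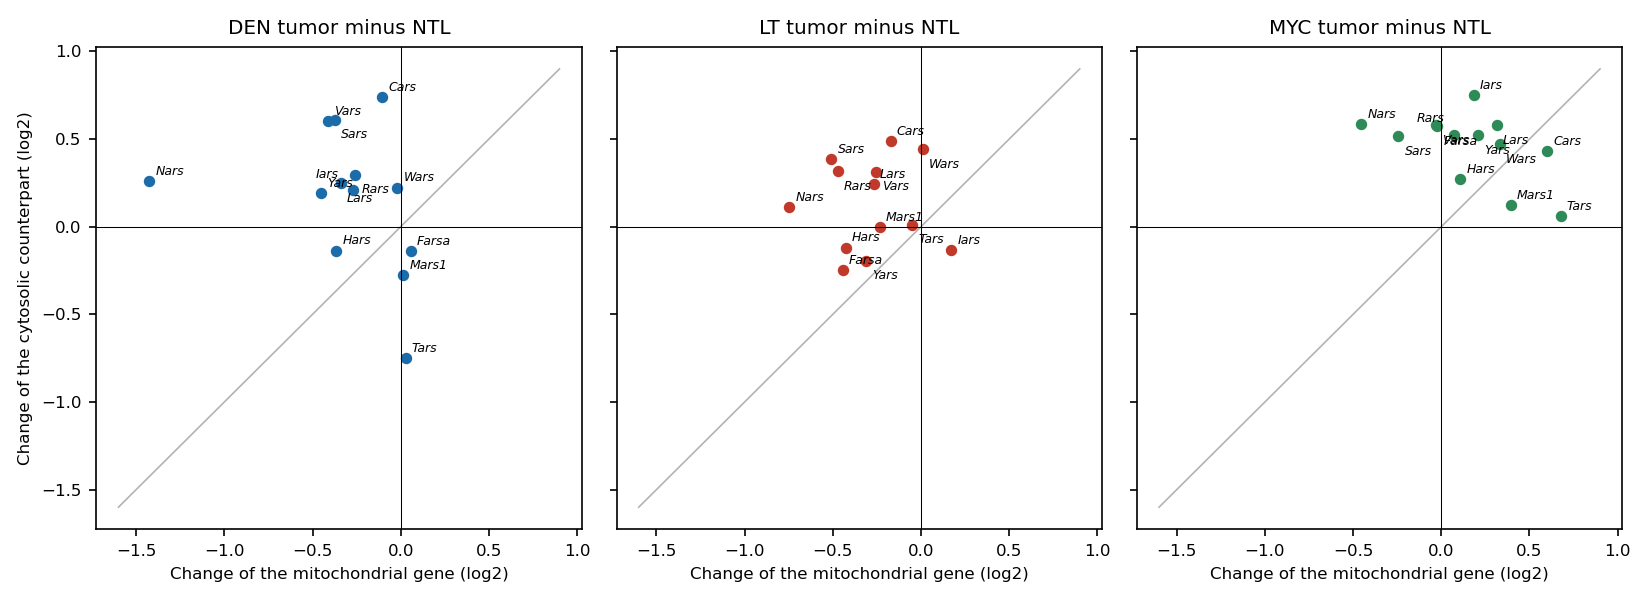
Log2 change in tumor against NTL of each cytosolic gene (vertical axis) and its mitochondrial counterpart (horizontal axis) for 13 amino acids, labelled by the cytosolic gene; the grey line marks equal change. Most points lie above the line, with 10, 12 and 10 of 13 in the DEN, LTα/β and MYC models, and Tars lies below it in DEN and MYC.

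The changes of the 34 members were also set side by side between models. Over the members, Pearson's r between the tumor-NTL changes was 0.68 for DEN and LTα/β, 0.73 for DEN and MYC, and 0.62 for LTα/β and MYC. The offset between the compartments enters these values. Within the 16 mitochondrial genes Spearman's rho was 0.13 for DEN and LTα/β, with the same sign in 9 of 16, 0.61 for DEN and MYC and 0.59 for LTα/β and MYC. Within the 18 cytosolic genes it was 0.76, 0.58 and 0.31 in the same order. These comparisons have no samples in common. Whether all arrays were normalised together is not stated, and genes are not independent replicates, so no p is given. Within the complex, 4 of 7 genes rose in MYC tumors (Iars, Lars, Rars and Kars), where 11.5% of all genes rose. In DEN tumors 1 of 7 rose (Rars) and 2 fell (Kars and Mars1), and in LTα/β tumors Qars was the 1 called gene and fell. The shares over all genes were 15.6% higher and 16.7% lower in DEN and 9.73% lower in LTα/β, so the counts of 1 of 7 were near the background.

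The partners of the synthetases were read from a list of 8 genes of the complex scaffold and of tRNA delivery to the ribosome. In MYC tumors 5 of 8 rose and none fell, including Eef1b2 (0.83 ± 0.12), Eef1g (0.59 ± 0.08) and the scaffold gene Aimp1 (0.46 ± 0.12). In DEN tumors 3 of 8 rose and none fell, with Eef1b2 at 0.58 ± 0.11. The LTα/β tumors had no rise, and Eef1e1 fell by 0.42 ± 0.11. Of 9 measured genes of synthetase editing and tRNA maturation, 6 fell in DEN tumors and none rose. Elac2, the tRNA 3′ processing enzyme, fell by 0.62 ± 0.07, Sepsecs, which makes selenocysteinyl-tRNA, by 0.54 ± 0.12, and Aarsd1, an alanyl-tRNA editing protein, by 0.52 ± 0.10. In LTα/β tumors 2 fell and none rose, and in MYC tumors 2 rose and 1 fell. The list medians were -0.36, -0.21 and 0.13 in the 3 models. Of all genes, 15.6% rose and 16.7% fell in DEN, 10.7% and 9.73% in LTα/β, and 11.5% and 10.3% in MYC tumors. The single falls, Eef1e1 in LTα/β and 1 of 9 editing and maturation genes in MYC tumors, were near these shares.

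Genes of mitochondrial translation other than synthetases were read from a list of 21 measured genes. In DEN tumors 12 fell, 9 were not called and none rose, with a median of -0.31, where 16.7% of all genes fell. Gfm1, the mitochondrial elongation factor G, fell by 1.09 ± 0.11. Gatb, a subunit of the amidotransferase that makes mitochondrial glutaminyl-tRNA, fell by 1.06 ± 0.08. Among LTα/β tumors 5 of 21 fell and none rose, led by Mto1 (-0.74 ± 0.12), a tRNA modifying enzyme. In MYC tumors 3 rose (Mtrf1, Gtpbp3 and Mrrf, by 0.31 to 0.47) and Trit1 fell, with a median of 0.05. Of all genes, 9.73% fell in LTα/β tumors, and 11.5% rose in MYC tumors, so the MYC count of rises was near the background.

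The amino acid response list separated the models differently. In DEN tumors 15 of 29 measured genes rose and 2 fell, with a median of 0.62 (all genes -0.04). Asns, asparagine synthetase, rose by 3.83 ± 0.54 and Psat1, an enzyme of serine synthesis, by 3.80 ± 0.29, while Cth fell by 1.30 ± 0.17. In LTα/β tumors 8 rose and 1 fell, with Atf3 at 1.77 ± 0.36, and in MYC tumors 5 rose, including the cystine transporter gene Slc7a11 (1.94 ± 0.52), and 4 fell. Of all genes, 15.6% rose and 16.7% fell in DEN, 10.7% and 9.73% in LTα/β, and 11.5% and 10.3% in MYC tumors. The MYC counts were near these shares. Atf4 itself, named here after its values were seen, rose by 0.65 ± 0.11 in DEN tumors. Asns lay between 9.63 and 11.10 in DEN tumors and between 5.97 and 7.26 in DEN NTL. In MYC NTL it was already 8.02 to 9.91, where the cytosolic synthetase medians were -0.04 to 0.03. In MYC tumors it was 7.53 to 10.70, where those medians were 0.24 to 0.47. The LTα/β tumors had Asns values of 5.52 to 6.39 and LTα/β NTL had 4.39 to 6.57. DEN controls had 4.75 to 7.87 and the shared controls 4.92 to 6.16. A link between Asns, 1 gene of this list, and the synthetase medians was not tested.

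Of 18 nucleolar and biosynthesis genes known as MYC targets, 9 rose and none fell in MYC tumors, led by Nop58 (0.83 ± 0.20) and Npm1 (0.74 ± 0.11). In DEN tumors 5 rose and none fell, and in LTα/β tumors 4 fell, led by Srm (-0.71 ± 0.20), and none rose. Among 20 measured cytosolic initiation factors, 7 rose in MYC tumors and none fell. In DEN tumors 4 rose and 2 fell, and in LTα/β tumors 1 rose and 5 fell. Of all genes, 15.6% rose and 16.7% fell in DEN, 10.7% and 9.73% in LTα/β, and 11.5% and 10.3% in MYC tumors. The DEN counts of initiation factors were near these shares. Eif1a rose by 1.16 ± 0.19 in MYC and by 0.90 ± 0.16 in DEN tumors. Of 16 interferon-gamma response genes, 4 fell in MYC tumors, including the immunoproteasome subunit gene Psmb8 (-0.96 ± 0.21), and none rose. Wars, called higher there (adjusted p = 0.0325), lost its call after centring and in 6 of the 8 fits without 1 array. In DEN tumors 3 rose and in LTα/β tumors 1 rose (Irf8, 0.84 ± 0.22), with none lower in either. These counts of rises were near the shares over all genes. Cell division genes rose in all models, with 10, 9 and 11 of 11 called higher in DEN, LTα/β and MYC tumors.

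The samples are whole tissue, in which fewer cells of a type and less RNA per cell cannot be told apart. Markers of other cell types were also called in each comparison of tumor with NTL. Of 12 Kupffer cell and macrophage markers, 9 fell in DEN tumors and none rose, and their summed level was 4130 to 8400 against 7850 to 14300 in DEN NTL. In LTα/β tumors 5 rose and 2 fell, with sums of 8650 to 16800 against 5390 to 9080. Of 10 stellate cell and fibroblast markers, 6 rose in LTα/β tumors, while 5 fell in MYC tumors, where the sum was 1510 to 4180 against 5470 to 6060 in NTL. Of 6 cholangiocyte markers, 4 rose in DEN tumors. Endothelial markers rose for 5 of 12 and fell for 2 in DEN tumors, and rose for 6 and fell for 3 in LTα/β tumors. In the latter 4 of 11 T and NK cell markers and 3 of 8 B and plasma cell markers also rose, and none of these fell. Of the hepatocyte markers, 2 rose and 3 fell in DEN tumors, none was called in LTα/β tumors, and 5 fell in MYC tumors. Of all genes, 15.6% rose and 16.7% fell in DEN, 10.7% and 9.73% in LTα/β, and 11.5% and 10.3% in MYC tumors. In DEN tumors the rises of hepatocyte markers and the falls of endothelial markers were near these shares. The part of these markers in the synthetase changes was not tested.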

How the data were processed

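RNA of 35 liver samples was hybridised to 1 array each. The authors deposited RMA-normalised log2 values, as the submitters' processing notes and the values show; the genome build of the probe annotation is not given in the sources used here. Of 35556 probe sets, 21218 had 1 gene symbol, 1881 several and 12457 none. The brightest single-symbol probe set of each gene gave 18820 genes, with array medians of 5.59 to 5.73. Means of the 8 groups were fitted over all arrays with limma 3.58.1 (R 4.3.3), with eBayes and Benjamini-Hochberg adjustment over all genes, for 9 comparisons of groups and 3 contrasts between models. The fit was tested on simulated data in which 18620 of 18820 genes were unchanged. A change of 0.5 was recovered for 63%, 44% and 55% of changed genes in the DEN, LTα/β and MYC tumor against NTL comparisons. In the data far more genes were called, which makes the adjusted threshold less strict, so these rates may be too low for the data. The p-values measure the spread between these samples, and the number of arrays limits the precision. Members and gene lists were chosen with earlier results of these data known; the named genes are members, plus leading genes of each list. Mouse identifiers paired no samples across groups. The 3 correlations of same-numbered LTα/β tumors and controls were 0.14 to 0.23, but these are different mice, so no pairing follows. Values with the replicate number as a block are given there as an alternative only. Alternatives were the mean of all probe sets, centring, only the compared groups, an intensity trend, averaging arrays of 1 identifier stem, the replicate block, a term for Xist above 9, leaving out dim genes, and leaving out each array.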

Additional observations from a re-analysis of the deposited data

Results flagged for a closer look

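An array stood apart from the others of its group in 16 of 204 sets of 4 or 5 values examined, where chance gives about 1 in 20. MYC tumor 4 was set apart for 4 genes, with log2 values of 6.87 for Aars2, 8.85 for Kars, 8.86 for Mars1 and 9.82 for Qars. Kars and Qars were high there, and Aars2 and Mars1 were low. DEN control 3, the DEN control with high Xist, was set apart for Mars2 at 6.05, Tarsl2 at 6.89 and Yars at 8.68. DEN control 1 was low for Fars2 at 8.03 and Vars2 at 7.68. DEN NTL sample 3 was low for Aars2 at 7.21 and Mars1 at 9.01. Single values were those of Iars2 in MYC tumor 3 (9.09), Lars in DEN tumor 2 (9.17), Tarsl2 in DEN tumor 4 (5.86), Sars2 in DEN NTL sample 4 (7.60) and Wars2 in DEN NTL sample 1 (7.46).

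The tumor-NTL change differed between models, by limma's test of the difference, for 29 pairs of a gene and a contrast. For DEN minus MYC the differences were -0.973 for Nars2, -0.716 for Farsa, -0.706 for Cars2, -0.660 for Yars2, -0.653 for Lars2, -0.650 for Kars, -0.648 for Tars2, -0.543 for Iars, -0.471 for Hars2 and -0.386 for Vars2. For LTα/β minus MYC the cytosolic differences were -0.884 for Iars, -0.825 for Farsa, -0.717 for Yars, -0.516 for Kars, -0.476 for Qars and -0.473 for Nars. The mitochondrial differences of that contrast were -0.819 for Pars2, -0.816 for Ears2, -0.771 for Cars2, -0.728 for Tars2, -0.627 for Mars2, -0.582 for Lars2, -0.543 for Rars2, -0.534 for Hars2, -0.519 for Yars2 and -0.422 for Fars2. For DEN minus LTα/β the differences were 0.622 for Pars2, 0.502 for Fars2 and 0.497 for Qars.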

How the results depend on the processing

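Of 125 called member values, 67 kept their call in every fit run and none changed direction. Counts of called members moved most in the LTα/β model. Between LTα/β tumors and NTL, fitting only the compared groups called 0 cytosolic and 0 mitochondrial genes, averaging arrays of 1 identifier stem called 4 and 7, and the replicate block called 4 cytosolic genes. Leaving out 1 array gave 1 to 8 cytosolic and 2 to 9 mitochondrial genes. Between LTα/β tumors and controls, centring lowered every change by 0.15 and called 6 cytosolic and 10 mitochondrial genes. Only the compared groups called 0 and 0, averaged stems 0 and 2, and the replicate block 2 cytosolic genes. The Xist term called 2 mitochondrial genes there, with a difference of medians of 0.18, and leaving out 1 array gave 0 to 2 cytosolic and 2 to 5 mitochondrial genes. Between LTα/β NTL and controls, centring called 0 mitochondrial genes, only the compared groups 2 and 2, the replicate block 0 cytosolic genes, and the Xist term 0 and 0 with a difference of medians of -0.14; leaving out 1 array gave 0 to 2 cytosolic and 0 to 1 mitochondrial genes. Between MYC NTL and controls, only the compared groups and averaged stems each called 2 cytosolic genes, and leaving out 1 array gave 0 to 1. The LTα/β minus MYC contrast called 9 members with only the compared groups. Leaving out 1 array gave 6 to 9 cytosolic genes between DEN tumors and NTL, 2 to 5 members for DEN minus LTα/β, and differences of medians of 0.17 to 0.35 between MYC tumors and NTL and 0.38 to 0.51 between DEN tumors and controls. The cause of these shifts was not tested. The replicate block changed no other count of calls by more than 1.5 times. In simulated data a change of 0.3 was recovered for 22%, 14% and 9% of changed genes in the DEN, LTα/β and MYC tumor against NTL comparisons. Far fewer genes changed in the simulation than were called in the data, so these rates may be too low for the data. A member not called may still have changed by that much.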

Other observations

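Probe sets shared by a synthetase gene and another gene were left out of the comparisons above, and their values are given without a test. The probe set of Aars and Exosc6 changed by -0.55 in DEN tumors against NTL, with every tumor lower, by -0.20 in LTα/β tumors and by 0.44 in MYC tumors. The probe set of Sgpp2 and Farsb changed by -0.22, -0.18 and 0.21 in the same order. The probe set of Tarsl2 and Tm2d3 changed by 0.11, -0.42 and -0.02, whereas the probe set of Tarsl2 alone changed by -0.49, -0.48 and -0.11. Which of the genes gave these signals cannot be told apart.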
